A study of Rattus norvegicus with 6 samples.

Results

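The genes described here are 37 rat genes of the DNA damage checkpoint and of DNA repair, picked by gene symbol. Of these, 36 had a row among the 32623 genes of the deposited table, and all 36 passed the filter on low counts and were tested. No row carried the symbol Chek1, which is not analysed here. Messenger RNA was measured by bulk RNA sequencing in 6 rat liver libraries. The GZM libraries (3) came from the group whose tissue was embolized with zinc sulfide microspheres, and the GM libraries (3) from the control group embolized with blank microspheres. Embolization, the blocking of feeding vessels with small beads, was thus common to both groups. The series title places the work in hepatocellular carcinoma, while the labels name the tissue only as liver, give no strain, age, dose or time after embolization, and do not state if tumour was sampled. They number the samples of a group as replicates with no word on animals, and the p-values then describe the spread between these samples, which may be technical. In bulk tissue, fewer cells of a type and less RNA per cell cannot be told apart.

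Cells mend a DNA double-strand break by several routes. Homologous recombination copies the missing stretch from the intact sister molecule and is used mainly after a cell has replicated its DNA, whereas end joining ligates the broken ends directly at any stage of the cell cycle. The Fanconi anemia pathway, named after an inherited disease, releases crosslinks between the DNA strands during replication and hands the break to recombination. Mismatch repair corrects base pairs that were copied wrongly, and the kinases Atm and Atr sense breaks and stalled replication forks and hold the cell cycle. Many recombination and Fanconi genes are known to be expressed most in dividing cells, and hepatocytes of a resting adult liver seldom divide.

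The promoters of the 29 with an entry in the RefSeq promoter table (build GRCr8) were searched for short motifs linked to cell cycle expression. Each window holds 250 bases before and 50 bases after the transcript start given there. The E2F motif was searched as TTTCCCGC, TTTCGCGC, TTTGCCGC or TTTGGCGC, the NF-Y motif as CCAAT and the CHR motif as TTTGAA, on both strands. No entry was found for Xrcc2, Rad54b, Blm, Wrn, Prkdc, Nbn and Chek2. The stretches below, 150 bases before to 20 bases after the start, show the gene with the largest fall (Fancd2), the mismatch repair gene (Msh6), a Fanconi gene that did not pass but holds an E2F match (Fancc) and the gene with the higher mean in GZM (Fance). Capitals mark E2F and CCAAT matches in either orientation. Strands are those of build GRCr8, and the deposited table gives the opposite strand for Msh6 (+) and Fancc (-).
Fancd2 (chr4:148234558-148234727, + strand): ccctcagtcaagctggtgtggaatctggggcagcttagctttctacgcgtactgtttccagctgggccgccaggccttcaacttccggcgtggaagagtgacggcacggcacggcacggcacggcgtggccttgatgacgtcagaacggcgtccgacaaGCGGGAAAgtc
Msh6 (chr6:12333486-12333655, - strand): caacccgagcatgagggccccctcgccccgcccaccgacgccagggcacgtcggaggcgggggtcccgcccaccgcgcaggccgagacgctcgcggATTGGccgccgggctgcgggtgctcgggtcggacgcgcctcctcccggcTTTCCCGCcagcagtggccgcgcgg
Fancc (chr17:1686939-1687108, + strand): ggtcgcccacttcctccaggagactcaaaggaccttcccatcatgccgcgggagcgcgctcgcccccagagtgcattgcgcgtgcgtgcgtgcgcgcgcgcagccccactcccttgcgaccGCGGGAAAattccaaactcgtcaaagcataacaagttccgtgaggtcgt
Fance (chr20:6371003-6371172, + strand): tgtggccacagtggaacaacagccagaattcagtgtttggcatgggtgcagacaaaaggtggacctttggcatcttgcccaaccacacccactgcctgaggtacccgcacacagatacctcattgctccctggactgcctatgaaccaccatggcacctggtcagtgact

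An E2F match stood in 6 of the 29 windows (20.7%), those of Bard1, Fancc, Fancl, Fancd2, Msh6 and Atm, against 2.14% of all 33469 windows of this length and 3.87% of the 10367 windows of tested genes. The share was 21.1% of 19 recombination and Fanconi genes and 20.0% of the other 10 genes. Both sets pool several roles, and single roles hold too few windows to compare. Of 5 end joining and mismatch repair windows 1 held a match, that of Msh6. Among tested genes with a window it stood in 5.53% of those lower in GZM, in 2.44% of those higher and in 3.79% of those not called. CCAAT stood in 44.8% of the 29 windows and in 37.9% of those of tested genes. TTTGAA stood in 17.2% of the 29 windows, in 12.1% of those of tested genes and in 18.3% of all windows. A match describes letters in this window and shows no binding.

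Gene counts summed to between 13443115 and 16073943 in GZM libraries and between 14552885 and 16604067 in GM libraries. Levels are given as CPM, read counts scaled to library size after TMM factors had corrected for library composition, or, for comparisons between genes, as deposited FPKM, which divides by exon length. The composition of the groups differed. The 10 most abundant genes took 21.5% to 23.6% of counts in GZM and 8.10% to 13.3% in GM, and the TMM factors ran from 0.715 to 0.793 in GZM and from 1.17 to 1.43 in GM. When library totals replaced the TMM factors, the median log2 fold change of all genes moved by -0.83, so each fold change holds on the TMM scale. Hepatocyte markers were present in all libraries, with a summed level of 79022 to 96361 CPM in GZM and 10784 to 38272 CPM in GM for 12 genes.

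The repair and checkpoint genes were lower in GZM. Among the 36, homologous recombination and Fanconi genes were lower by more than end joining genes, a difference not seen in the medians of further genes. By edgeR's quasi-likelihood test (adjusted p below 0.05), 27 of the 36 genes fell and none rose, while of all 14298 tested genes 44.0% changed, 21.7% downward and 22.2% upward. At an unadjusted p under 0.05 none of the 36 rose either, nor did any with DESeq2. With library totals 35 of the 36 fell and none rose, where 59.5% of all genes fell and 9.20% rose. Of the 36, 18 fell by at least 2-fold, against 14.6% of all genes. For 29 of the 36 every GZM library lay below every GM library, against 29.7% of all genes, and for none did every GZM library lie above. The median log2 fold change was -1.11 over the 36 genes and -0.09 over all genes. Without GZM 2 the number that fell was 17, and that of all genes changed in either direction was 3777 in place of 6285.

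**Figure D1:**
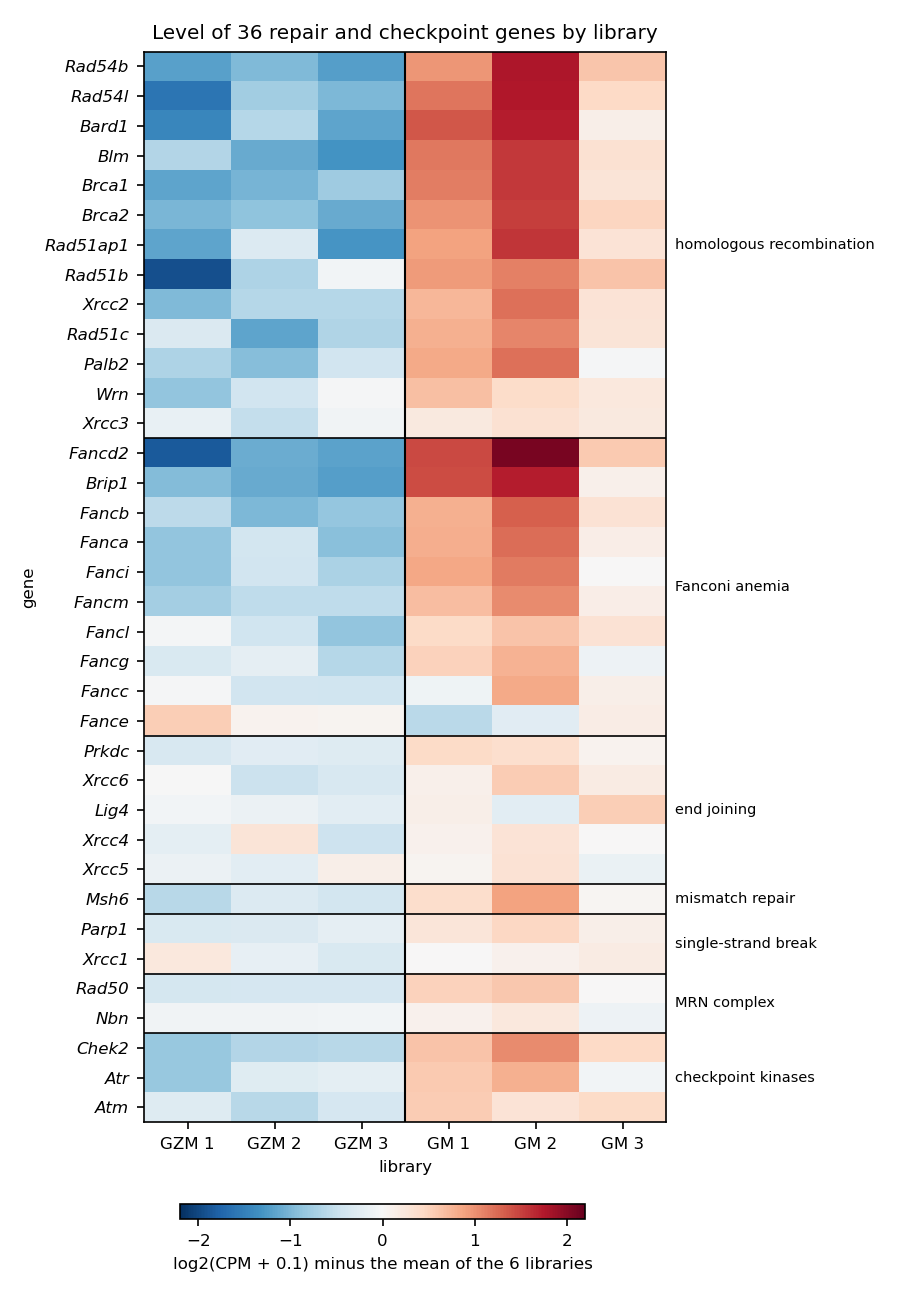
Level of each of the 36 genes (rows, grouped by role) in the 3 GZM and 3 GM libraries (columns), as log2(CPM + 0.1) minus the gene's mean over the 6 libraries, with red above and blue below that mean. The recombination and Fanconi blocks hold the deepest colours, GM 2 is the darkest red column, and GM 3 is the palest of the GM columns.

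The sets of homologous recombination and Fanconi genes, and of end joining and mismatch repair genes, differed in size of fall. Of 23 recombination and Fanconi genes 19 fell, at a median log2 fold change of -1.56. Of 6 end joining and mismatch repair genes 3 fell, at a median of -0.45. Of all tested genes 21.7% fell. The level of a set, its average log2 CPM after subtracting each gene's 6-library mean, was for recombination and Fanconi genes -0.81, -0.67 and -0.74 in GZM 1, 2 and 3, against 0.78, 1.18 and 0.26 in GM 1, 2 and 3. The end joining and mismatch repair level was -0.23, -0.18 and -0.27 in the GZM libraries, against 0.20, 0.36 and 0.12 in the GM libraries. The first level minus the second, which the scaling of a library cannot change except through low counts, was -0.58, -0.49 and -0.47 in GZM 1, 2 and 3, against 0.58, 0.82 and 0.14 in GM 1, 2 and 3. The groups did not overlap in this difference, and GM 3 lay nearest to GZM. These are descriptions of chosen genes and carry no p. With library totals all 6 end joining and mismatch repair genes passed as lower, and 22 of the 23 others, where 59.5% of all genes fell. Without GZM 2, GZM 3 or GM 1, 1 of the 6 passed. Further genes of these roles are described below. Their median was -0.60 in the recombination, -0.34 in the Fanconi, -0.55 in the end joining and -0.47 in the mismatch repair list. No such difference between the sets was seen in these medians.

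**Figure D2:**
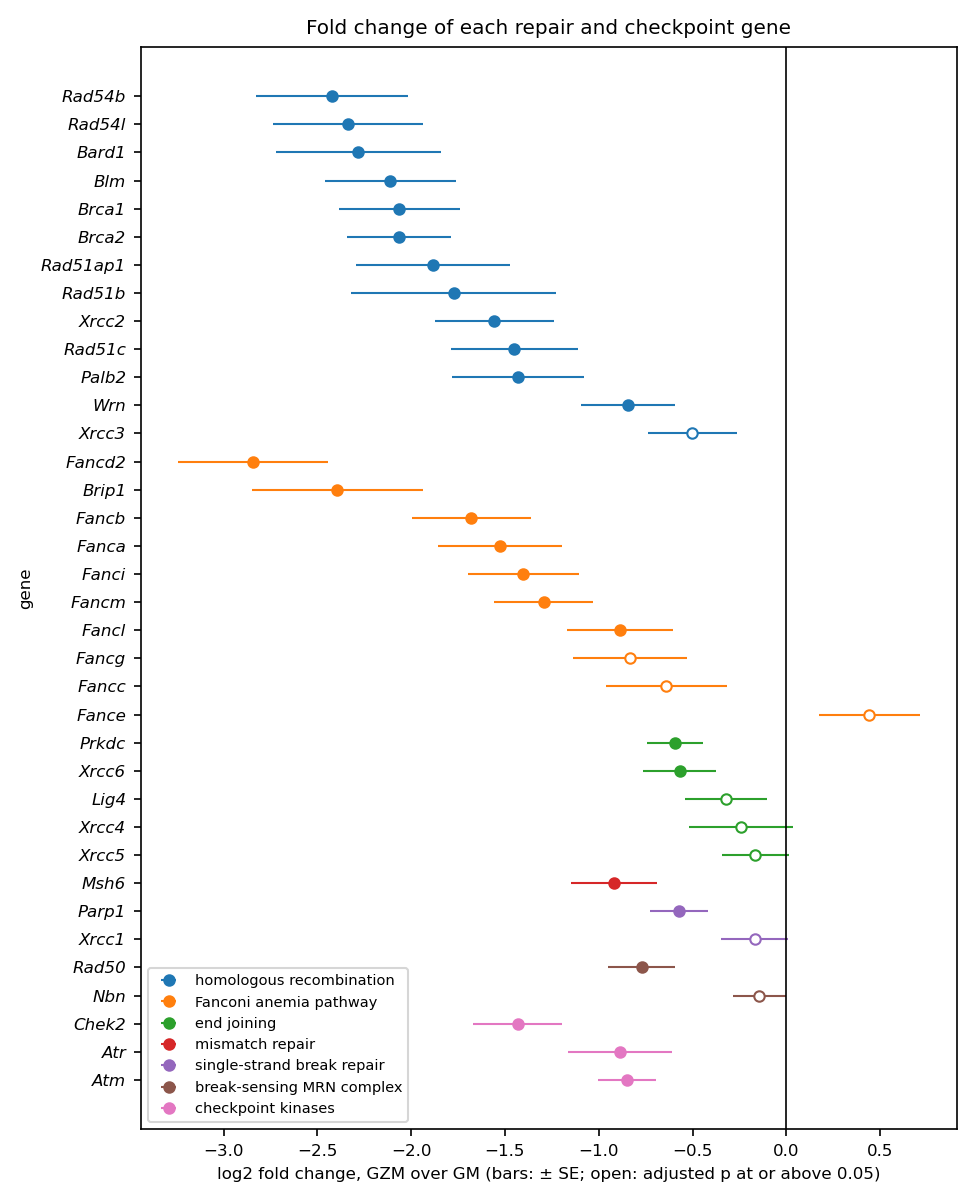
Log2 fold change of GZM over GM with its standard error for each of the 36 genes, grouped by role; open circles did not pass. Recombination and Fanconi genes reach from -2.84 (Fancd2) to 0.44 (Fance), and end joining genes from -0.59 (Prkdc) to -0.16 (Xrcc5).

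Among genes of homologous recombination, 12 of 13 fell, with log2 fold changes from -2.42 to -0.84. Brca2, which loads the recombinase onto single-stranded DNA, had 8.63, 9.33 and 8.01 CPM in GZM 1, 2 and 3, against 34.3, 50.1 and 24.2 CPM in GM 1, 2 and 3. It was 4.18-fold lower in GZM (log2 fold change -2.06 ± 0.28 SE, edgeR adjusted p = 0.00241), and the lowest GM library was still above every GZM library. Brca1, which steers a break towards recombination, had 8.52, 9.43 and 11.2 CPM in GZM and 41.8, 56.8 and 23.3 CPM in GM (-2.06 ± 0.32 SE, edgeR adjusted p = 0.00321). Its partner in a ubiquitin ligase, Bard1, fell by 2.28 on the log2 scale, and Palb2, which bridges the Brca1 and Brca2 proteins, fell by 1.43, a call lost without GZM 2 (adjusted p = 0.0607).

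Motor proteins that remodel recombining DNA were lower by different amounts. Rad54b, a DNA translocase related to Rad54l, had 1.10, 1.32 and 1.10 CPM in GZM and 5.35, 9.45 and 4.11 CPM in GM, 5.36-fold lower in GZM (-2.42 ± 0.41 SE, edgeR adjusted p = 0.00383). It rests on few reads, 39 counts in the 3 GZM libraries and 413 in the 3 GM libraries. Rad54l itself fell by 2.34. The helicase gene Blm, whose product untangles joined recombination intermediates, had 7.32, 5.28 and 4.55 CPM in GZM and 25.6, 33.8 and 14.5 CPM in GM (-2.11 ± 0.35 SE, edgeR adjusted p = 0.00372). The groups of all 3 of these genes were apart, and GM 2 was the highest library of each. Wrn, a helicase of the same family as Blm, fell by only 0.84 and lost its call without GZM 1 (adjusted p = 0.0711), GZM 2 (0.094), GM 1 (0.0943) or GM 2 (0.0513).

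Genes of the recombinase paralog complexes, which help the recombinase form its filament, were lower to different degrees. Xrcc2 fell by 1.56, Rad51c by 1.45 and Rad51b by 1.77, and Rad51ap1, an accessory factor that is no paralog, fell by 1.88. The call of Rad51c was lost without GZM 2 (adjusted p = 0.0511). Rad51b rested on few reads, 13 over the GZM libraries and 85 over the GM libraries, and lost its call without GZM 1 (adjusted p = 0.0765), GZM 2 (0.11), GM 1 (0.0819) or GM 2 (0.0786). Xrcc3 was the recombination gene that did not pass. It had 6.02, 4.62 and 6.36 CPM in GZM and 7.76, 8.51 and 7.81 CPM in GM (-0.50 ± 0.24 SE, edgeR adjusted p = 0.12), with GZM below GM in every library and the smallest log2 fold change of the 13 genes of this role.

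In the Fanconi anemia pathway 7 of 10 genes fell. Fancd2, which together with Fanci forms the clamp that is ubiquitinated at a crosslink, had the largest fall of all 36 genes. It had 4.91, 8.30 and 7.85 CPM in GZM 1, 2 and 3, against 49.1, 75.8 and 26.6 CPM in GM 1, 2 and 3, and was 7.17-fold lower in GZM (-2.84 ± 0.40 SE, edgeR adjusted p = 0.00257). Its clamp partner Fanci fell by 1.40. Brip1, a helicase that binds the Brca1 protein, had 1.81, 1.60 and 1.49 CPM in GZM and 9.79, 12.1 and 3.86 CPM in GM (-2.39 ± 0.46 SE, edgeR adjusted p = 0.00568). In both Fancd2 and Brip1 the GM libraries spread widely, with GM 3 below GM 1 and GM 2 but above every GZM library.

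The core complex that ubiquitinates this clamp was less uniform. Fancb had 4.31, 3.21 and 3.53 CPM in GZM and 11.1, 16.2 and 8.07 CPM in GM (-1.68 ± 0.32 SE, edgeR adjusted p = 0.00557). Fancm, the translocase that anchors the complex on DNA, had 6.52, 7.45 and 7.46 CPM in GZM and 17.8, 22.6 and 12.1 CPM in GM (-1.29 ± 0.27 SE, edgeR adjusted p = 0.0072). Both had separate groups. Fanca fell by 1.53. The catalytic subunit Fancl fell by 0.88, a call lost without GZM 2 (adjusted p = 0.116), GZM 3 (0.126), GM 1 (0.0838) or GM 2 (0.0768).

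The other 3 core genes did not pass. Fancg had 4.71, 5.19 and 3.85 CPM in GZM and 8.58, 10.3 and 5.55 CPM in GM (-0.83 ± 0.30 SE, edgeR adjusted p = 0.0561). Its groups were apart, and it passed in 6 of 14 other settings, among them the fit without GM 3 (adjusted p = 0.0169). Fancc had 5.62, 4.24 and 4.16 CPM in GZM and 5.35, 10.2 and 6.22 CPM in GM (-0.64 ± 0.32 SE, edgeR adjusted p = 0.142), and GZM 1 lay within the GM range. Fance, which links the core complex to Fancd2, was the only gene of the 36 with a higher mean in GZM, at 15.0, 10.8 and 10.8 CPM in GZM and 6.75, 8.64 and 11.6 CPM in GM (0.44 ± 0.27 SE, edgeR adjusted p = 0.216). Its groups overlapped at GM 3, and with library totals its log2 fold change turned to -0.37.

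End joining genes changed by less. The catalytic subunit of the DNA-dependent protein kinase, Prkdc, had 29.6, 31.8 and 31.1 CPM in GZM 1, 2 and 3, against 50.6, 48.8 and 40.1 CPM in GM 1, 2 and 3 (-0.59 ± 0.15 SE, edgeR adjusted p = 0.0148). Its GZM libraries were alike and all below GM, yet the call was lost without GZM 2 (adjusted p = 0.0603), GZM 3 (0.0579) or GM 1 (0.0582). The Ku heterodimer that first grips a broken end is encoded by Xrcc6 and Xrcc5. Xrcc6 had 28.4, 20.7 and 22.4 CPM in GZM and 30.9, 42.4 and 32.6 CPM in GM (-0.57 ± 0.19 SE, edgeR adjusted p = 0.0457), a call lost without GZM 2 (adjusted p = 0.175), GZM 3 (0.146), GM 1 (0.0626) or GM 2 (0.106). Xrcc5 had 26.7, 25.1 and 32.0 CPM in GZM and 30.8, 36.5 and 26.6 CPM in GM (-0.16 ± 0.18 SE, edgeR adjusted p = 0.48), with overlapping groups.

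The ligation step of end joining did not pass in either gene. Lig4, the ligase, had 21.0, 20.0 and 18.7 CPM in GZM and 24.0, 18.6 and 32.0 CPM in GM (-0.32 ± 0.22 SE, edgeR adjusted p = 0.264). Its scaffold Xrcc4 had 5.32, 7.54 and 4.48 CPM in GZM and 6.61, 7.62 and 6.22 CPM in GM (-0.24 ± 0.28 SE, edgeR adjusted p = 0.503). For Lig4 every GZM library lay within the GM range, and for Xrcc4 only GZM 2 did. Msh6, which recognizes base mismatches, was lower, at 27.4, 34.2 and 31.7 CPM in GZM and 55.4, 77.8 and 43.3 CPM in GM (-0.92 ± 0.23 SE, edgeR adjusted p = 0.0142), with every GZM library below GM.

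Of the genes that sense breaks, part fell and part did not pass. The MRN complex tethers broken ends and activates Atm. Its gene Rad50 had 31.6, 31.7 and 31.9 CPM in GZM and 58.7, 62.1 and 41.5 CPM in GM (-0.77 ± 0.18 SE, edgeR adjusted p = 0.0112), a call lost without GZM 2 (adjusted p = 0.0508). Its partner Nbn had 51.7, 51.8 and 52.5 CPM in GZM and 58.1, 63.7 and 50.5 CPM in GM (-0.14 ± 0.14 SE, edgeR adjusted p = 0.435). The GZM libraries were close to each other in both genes, and for Nbn they lay inside the GM range. Parp1, which marks single-strand breaks with poly(ADP-ribose), had 86.2, 86.7 and 95.2 CPM in GZM and 131, 149 and 119 CPM in GM (-0.57 ± 0.16 SE, edgeR adjusted p = 0.021). The groups of Parp1 were apart, but its call was lost without GZM 1 (adjusted p = 0.0659), GZM 2 (0.101), GZM 3 (0.0627) or GM 1 (0.0592). Xrcc1, the scaffold of single-strand break repair, had 45.3, 34.1 and 30.5 CPM in GZM and 38.8, 41.0 and 43.7 CPM in GM (-0.17 ± 0.18 SE, edgeR adjusted p = 0.465), with GZM 1 the highest library of all.

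All 3 measured checkpoint kinases fell. Atm, which responds to breaks, had 49.2, 39.2 and 46.5 CPM in GZM and 88.3, 74.5 and 80.3 CPM in GM, 1.80-fold lower in GZM (-0.85 ± 0.15 SE, edgeR adjusted p = 0.00479). Its groups were far apart, and GM 1, not GM 2, was its highest library. Chek2, the kinase that Atm activates, had 5.12, 5.85 and 6.05 CPM in GZM and 14.4, 19.0 and 12.5 CPM in GM (-1.43 ± 0.24 SE, edgeR adjusted p = 0.00373), again with separate groups. Atr, which responds to stalled forks, had 8.63, 12.8 and 13.3 CPM in GZM and 23.0, 26.6 and 14.7 CPM in GM (-0.89 ± 0.28 SE, edgeR adjusted p = 0.0341). Atr lost its call without GZM 1 (adjusted p = 0.0961), GZM 2 (0.0791), GZM 3 (0.0636), GM 1 (0.0959) or GM 2 (0.0907).

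Per exon length, the most abundant of the 36 genes in GM were Parp1 at 17.3 ± 1.88 FPKM in GZM and 46.0 ± 9.27 FPKM in GM, Nbn at 14.6 ± 0.892 and 28.9 ± 6.06 FPKM, and Xrcc1 at 13.2 ± 2.60 and 26.4 ± 1.68 FPKM (SD, n = 3 each, GZM before GM in every pair). None of these is a recombination or Fanconi gene. Fancd2 had 1.21 ± 0.322 FPKM in GZM and 15.9 ± 8.75 FPKM in GM, which placed it 7 among the 36 genes by its GM level. Rad51b, Rad54b and Brip1 stood at the bottom of that order, at 0.367 ± 0.275, 0.267 ± 0.0208 and 0.280 ± 0.0265 FPKM in GZM and 2.34 ± 0.614, 2.62 ± 1.33 and 2.71 ± 1.503 FPKM in GM. FPKM is scaled by library totals, so these levels differ between groups by more than the TMM scale gives.

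For some of the 36 genes the table lists another gene at overlapping positions, 10 in all. The libraries were strand-specific per the labels, but whether counting used the strand is not given in the sources used here. Where a partner on the other strand had many reads, 3 of 5 partners did not fall on the TMM scale. Lrrc41, opposite Rad54l, had a log2 fold change of 0.08 (edgeR adjusted p = 0.703), Fbxo11, opposite Msh6, had 0.03 (0.888), and Zfp276, opposite Fanca, rose by 0.69 (0.0248). With library totals Lrrc41 (-0.77, adjusted p = 0.0129) and Fbxo11 (-0.81, adjusted p = 0.00528) fell, and Zfp276 turned to -0.15 and did not pass. On the TMM scale Klc1, opposite Xrcc3, fell by 0.87 (0.00721) and Vrk2, opposite Fancl, fell by 1.24 (0.00744). Rad54b shares its strand with Fsbp, which had 75 counts. The part of these neighbours in the values of the repair genes was not tested.

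The spread among the GM libraries had a common order. For 27 of the 36 genes GM 2 was highest, GM 1 next and GM 3 lowest of the GM libraries, and this order held for 19 of 23 recombination and Fanconi genes and for 3 of 6 end joining and mismatch repair genes. The order was not particular to these genes. The main axis of variation over all tested genes, with 76.9% of the variance, placed GM 2 at 101.1, GM 1 at 75.3 and GM 3 at 34.9. The GZM libraries lay at -74.7 to -66.4 on it. The share of all genes with this order was not counted. A list of 28 cell division genes, 26 of them with a row, moved with the levels of the repair genes. All 26 fell, at a median of -2.0, and 24 of the 26 had the same order of GM libraries. Mki67, made in proliferating cells, fell by 2.06, the replicative helicase gene Mcm3 by 1.98, the mitotic checkpoint gene Bub1 by 2.46 and Rrm2, a subunit of ribonucleotide reductase, by 3.27. The cell division level was -1.08, -0.86 and -0.92 in GZM 1, 2 and 3, against 1.08, 1.59 and 0.19 in GM 1, 2 and 3. The recombination and Fanconi level minus the cell division level was 0.26, 0.19 and 0.19 in the GZM libraries, against -0.30, -0.41 and 0.07 in the GM libraries, so recombination and Fanconi genes differed between the groups by less than cell division genes did. Summed over the list, cell division genes had 493 to 547 CPM in GZM and 1158 to 2957 CPM in GM.

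**Figure D3:**
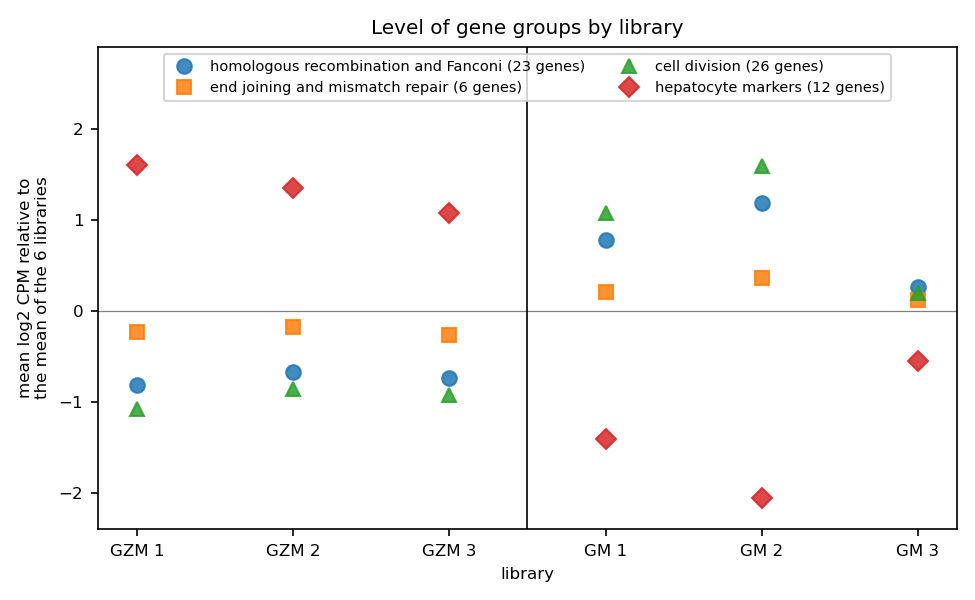
Level of 4 gene groups in each library (average log2 CPM, each gene centred on its 6-library mean), GZM libraries at left and GM libraries at right. Recombination and Fanconi genes (circles) lie between end joining and mismatch repair genes (squares) and cell division genes (triangles) in 5 libraries, and hepatocyte markers (diamonds) run the other way.

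Markers of cell types also differed between the groups. Of 12 hepatocyte markers 11 rose and none fell, at a median of 2.43. With library totals 9 rose and none fell, at a median of 1.67. Their level was 1.60, 1.35 and 1.08 in GZM 1, 2 and 3, against -1.41, -2.06 and -0.56 in GM 1, 2 and 3. Of 11 T and natural killer cell markers 2 fell, with a summed level of 111 to 323 CPM in GZM and 358 to 671 CPM in GM, and 10 fell without GZM 1. Of 7 macrophage and Kupffer cell markers 5 fell and 1 rose, with a summed level of 1463 to 2027 CPM in GZM and 3094 to 5105 CPM in GM. The list did not move as 1. Clec4f was the marker that rose (2.28, edgeR adjusted p = 0.0053), and Marco did not pass (1.02, edgeR adjusted p = 0.282). The number of macrophage markers that fell was 3 without GZM 1, 1 without GZM 2, 1 without GZM 3 and 2 without GM 1. Of 5 endothelial markers 4 rose, a number that was 0 with library totals. In the remaining lists 1 of 6 stellate cell and fibroblast markers and 1 of 4 neutrophil markers fell, 1 of 5 cholangiocyte and 2 of 3 erythroid markers rose, and none of 6 B and plasma cell markers passed in edgeR, while 1 was higher at an unadjusted p under 0.05 and in DESeq2. With library totals 6 of 6 stellate cell and fibroblast, 2 of 4 neutrophil and 8 of 11 T and natural killer cell markers fell, 1 cholangiocyte and 1 B and plasma cell marker fell, and no cholangiocyte or erythroid marker rose. No marker with a row was at 0 in all libraries of a group. The part of cell division and of cell type shares in the levels of the repair genes was not tested.

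Beyond the 36 genes, 122 further repair and damage response genes were followed in 9 lists, of which 117 were tested. Of these 35 fell and 18 rose, and with library totals 83 fell and 4 rose. The share that fell was 29.9%, where it was 75.0% among the 36 genes and 21.7% among all genes. Without GZM 2 the numbers were 21 and 10, without GZM 3, 23 fell, and without GM 1, 9 rose.

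Of 20 tested further recombination genes, 9 fell and 1 rose, at a median of -0.60. Exo1, the nuclease that resects broken ends, had 1.71, 3.02 and 2.28 CPM in GZM 1, 2 and 3, against 17.7, 30.4 and 9.31 CPM in GM 1, 2 and 3 (-3.03 ± 0.47 SE, edgeR adjusted p = 0.00316). Mcm8, a helicase gene, fell by 2.41 and Eme1, a subunit of a structure-specific nuclease, by 2.03. All GZM libraries lay below GM for each of these 3 genes. The single gene that rose was the paralog Rad51d, at 30.0, 27.6 and 22.7 CPM in GZM and 13.3, 12.3 and 15.1 CPM in GM (0.98 ± 0.18 SE, edgeR adjusted p = 0.00535), but with library totals it did not pass (0.15, adjusted p = 0.496).

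Other Fanconi genes moved both ways. Of 9 tested, 3 fell and 2 rose. Ube2t, the enzyme that hands ubiquitin to the Fancd2 clamp, fell by 2.36, and Usp1, which removes it again, fell by 1.05, a call lost without GZM 2 (adjusted p = 0.0532). Faap100, a core complex subunit, was lower by -1.11 and lost its call without GZM 2 (adjusted p = 0.0842) or GZM 3 (0.0567). Faap20 (1.06) and Slx1b (0.85), which were higher, did not pass with library totals (adjusted p = 0.559 and 0.856). Faap20 also lost its call without GZM 2, GZM 3 or GM 1, and Slx1b without GM 1. Without GZM 2, 1 gene fell and 1 rose, 1 rose without GZM 3, and none rose without GM 1. Of 8 tested further end joining genes 4 fell and none rose, also at an unadjusted p under 0.05 and with DESeq2. Polq, the polymerase of a back-up end joining route, fell by 2.89, Rif1, which protects ends from resection, by 1.91, the nuclease gene Dclre1c by 1.13 and Tp53bp1, which favours end joining over recombination, by 0.76. Paxx was listed among them and was too low to be tested.

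Of 13 tested nucleotide excision repair genes none fell and 3 rose, at a median of 0.31, where 21.7% of all genes fell and 22.2% rose. At an unadjusted p under 0.05, 2 of them were lower, and DESeq2 called 1. Xpc, which finds bulky lesions, had 61.9, 61.8 and 64.6 CPM in GZM and 30.1, 29.5 and 34.3 CPM in GM (1.00 ± 0.13 SE, edgeR adjusted p = 0.0024). Cetn2 (0.63) and Ercc5 (0.64), the other two that rose, each lost the call without GZM 1, GZM 2, GM 1 or GM 2 and turned to -0.19 and -0.18 with library totals. With library totals Xpc did not pass (0.18, adjusted p = 0.336), and then 7 of the 13 fell and none rose. Without GZM 1, GZM 2 or GM 1, 1 gene of that list rose, and without GM 3, 2 fell. Of 18 tested base excision and single-strand break repair genes 3 fell and none rose, at a median of -0.03; 3 were higher at an unadjusted p under 0.05, DESeq2 called 2 higher, and 12 fell with library totals. Tdp1, which removes topoisomerase from DNA ends, fell by 1.12, a call lost without GZM 2 (adjusted p = 0.0604). Mutyh (-0.80) and Apex1 (-0.67) lost theirs without any 1 GZM library or GM 2. The number that fell was 1 without GZM 1, GZM 3 or GM 2 and 0 without GZM 2, and 1 rose without GZM 1 or GM 3 and 2 without GM 2.

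Of 9 tested translesion and direct reversal genes, 2 fell and 3 rose. The 2 that fell were Rad18 and Polh. The 3 that rose reverse alkylation damage directly. Alkbh3 had 41.7, 49.0 and 42.6 CPM in GZM and 22.3, 23.0 and 25.6 CPM in GM (0.91 ± 0.15 SE, edgeR adjusted p = 0.00339), and Mgmt (0.93) and Alkbh2 (0.96) were also higher. With library totals none of the 3 passed (adjusted p = 0.67, 0.633 and 0.652). Mgmt and Alkbh2 also lost their calls without GZM 2 or GM 1, Mgmt without GZM 1 or GM 2, and Alkbh2 without GZM 3. Rad18, which starts the bypass of damage at the fork, fell by 2.00. Without GZM 2 or GM 1, 1 gene of the list fell and 1 rose, and without GZM 3 or GM 2, 1 fell. Of 6 tested further mismatch repair genes 3 fell and 2 rose. Pms2 fell by 1.09, and Pms1 (-0.86) lost its call without GZM 2 (adjusted p = 0.0515). Mlh3 (0.49) kept its call without GM 2, lost it without any other library, and turned to -0.35 with library totals. Msh3, which recognizes larger mispaired loops, was higher by 0.72, lost its call without GZM 2 (adjusted p = 0.0614), GZM 3 (0.0504) or GM 1 (0.0525), and turned to -0.12 with library totals. Without GZM 2, 1 mismatch repair gene fell and none rose, none rose without GZM 3 or GM 1, and 1 rose without GZM 1 or GM 3.

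**Figure D4:**
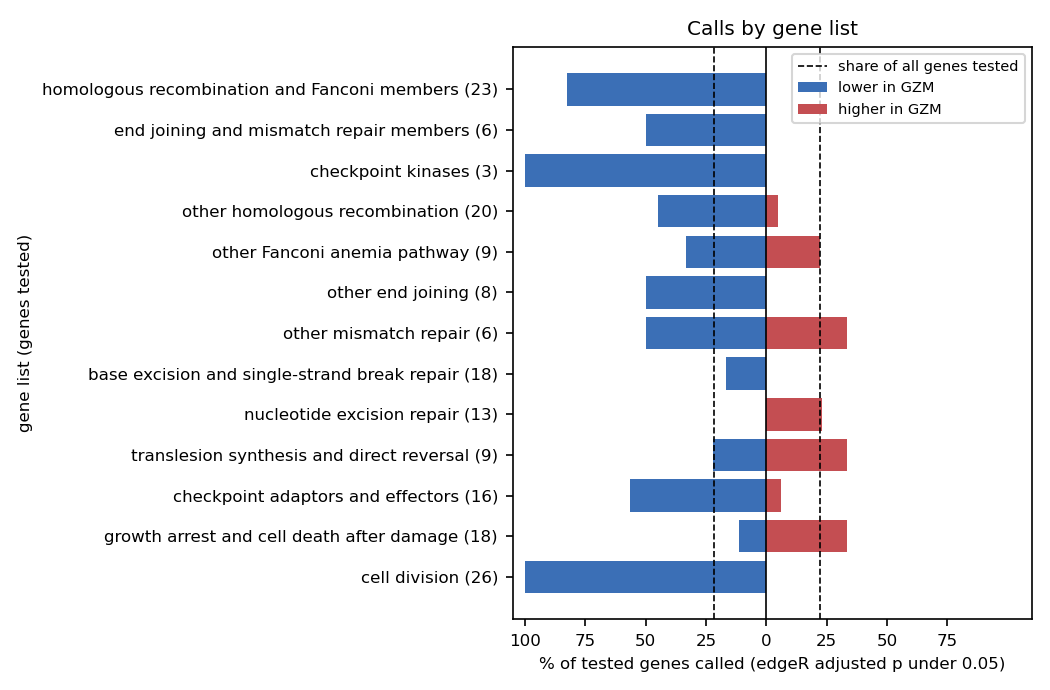
Share of the tested genes of each list that were lower (bars to the left) or higher (bars to the right) in GZM (edgeR, adjusted p below 0.05); dashed lines mark the shares over all genes, 21.7% lower and 22.2% higher. Bars use the TMM scale. With library totals 4 genes of the further lists passed as higher, all in the list of growth arrest and cell death after damage.

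Of 16 tested checkpoint adaptors and effectors, 9 fell and 1 rose, at a median of -0.78, and 5 fell without GZM 2 and 4 without GZM 3. Clspn, the mediator between Atr and its target kinase, had 1.81, 2.36 and 1.81 CPM in GZM 1, 2 and 3, against 18.7, 25.5 and 8.59 CPM in GM 1, 2 and 3 (-3.14 ± 0.43 SE, edgeR adjusted p = 0.00249). Timeless, a fork protection factor, fell by 1.54 and Mdc1, which binds marked chromatin at breaks, by 1.61. The ubiquitin ligase gene Rnf8 rose by 1.21, a call not kept with library totals (0.40, adjusted p = 0.117).

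Genes that halt growth or promote cell death after DNA damage went both ways. Of 18 tested genes of that list 6 rose and 2 fell, at a median of 0.22. With library totals 4 rose and 9 fell. The growth-arrest genes Btg2 and Gadd45a were higher. Btg2 had 101, 190 and 139 CPM in GZM and 37.1, 26.9 and 41.0 CPM in GM (2.04 ± 0.27 SE, edgeR adjusted p = 0.0024, and 1.21 with library totals), and Gadd45a had 47.6, 83.3 and 72.2 CPM in GZM and 18.0, 20.1 and 24.7 CPM in GM (1.69 ± 0.24 SE, edgeR adjusted p = 0.00253, and 0.87 with library totals). Both groups of libraries were apart in each gene. The cell cycle inhibitor gene Cdkn1a had 49.3, 45.3 and 41.7 CPM in GZM and 56.7, 96.1 and 174 CPM in GM (-1.26 ± 0.37 SE, edgeR adjusted p = 0.0257), and it was highest in GM 3. Its call was lost without GZM 1 (adjusted p = 0.0571), GZM 2 (0.0827) or GZM 3 (0.0837). Ei24 also rose, by 1.5, and by 0.69 with library totals. The cell death gene Pmaip1 fell by 2.32. Without any 1 GZM library, 1 gene of the list fell.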

How the data were processed

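The members and gene lists were chosen with earlier results of these data known. Libraries were poly(A)-selected and strand-specific, per the labels' protocols. Aligner and counting tool: not given in the sources used here. The submitters' processing notes name the build mRatBN 7.2, but positions in the table reach 282724300 on chromosome 1, so no position from it is printed.

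The authors deposited raw whole-number counts per gene. Their FPKM values are, per the file headers and a recomputation within 0.005, counts per exon length and per summed counts of the sample. GZM columns carry the letters as ZGM and were matched by letters and number.

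Counts were tested across the whole table with edgeR 4.0.16 (R 4.3.3): TMM factors, default low-count filter, quasi-likelihood test, no covariate, Benjamini-Hochberg adjustment at 0.05. SE is the log2 fold change over the root of its quasi-F. Group levels used a prior count of 2. Within groups, libraries differed beyond sampling noise (chi-square per degree of freedom of at least 10.9). Each library was treated as 1 sample, but this spread does not show if the libraries came from separate animals. Counts were also simulated for 14099 genes, of which 195 were changed. There edgeR found 15.5% of 2-fold and 81.6% of 4-fold changes, and 3 calls were false. In the data 44.0% of genes were called, a far larger share, so these rates do not carry over to the real comparison. Alternatives used DESeq2 1.42.0 and limma 3.58.1. Named genes are the 36, and from each further list up to 4 of smallest p and those called against its majority. Some genes of the further lists are not reported here.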

Additional observations from a re-analysis of the deposited data

How the results depend on the processing

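Under 14 other settings no member passed as higher, and 17 of the 27 members that fell kept their call in every one. With library totals, limma on log2(FPKM + 0.1) and limma on log2(FPKM + 1), all scaled to library totals, 9828, 9922 and 9843 of all genes changed in place of 6285, end joining and mismatch repair genes all passed as lower (6 of 6 each time) and their median was -1.27, -1.24 and -1.02 in place of -0.45. The recombination and Fanconi median was -2.42, -2.18 and -1.45 in these settings, in place of -1.56. The same settings turned Cetn2 to -0.19, -0.19 and -0.19, Ercc5 to -0.18, -0.17 and -0.14, Mlh3 to -0.35, -0.33 and -0.28, and Msh3 to -0.12, -0.11 and -0.088, none past the threshold. Library totals moved all genes from 3104 lower and 3181 higher to 8513 lower and 1315 higher. Leaving out 1 library gave 3777 to 7024 genes changed, 17 to 28 members lower, 14 to 20 recombination and Fanconi genes lower and 1 to 3 end joining and mismatch repair genes lower, with fewer samples in each fit. Without GM 3 and GZM 1 together 27 members fell, Rad51b not among them (adjusted p = 0.061). The replicate numbers did not pair the libraries (r of same-numbered deviations -0.14, 0.16 and -0.27), and with the replicate block 21 members fell and 5166 of all genes changed. The 6 members without a call under the block were Rad51b (adjusted p = 0.0601), Wrn (0.0553), Fancl (0.0557), Xrcc6 (0.0925), Parp1 (0.0692) and Atr (0.0594).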
